A study of Mus musculus with 6 samples.

Results

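The proteasome is the protease that degrades ubiquitin-tagged proteins in the cytosol and nucleus. Its barrel-shaped core is built from rings of alpha subunits, which gate the entrance, and rings of beta subunits, of which Psmb5, Psmb6 and Psmb7 carry the constitutive active sites. A cap sits on the core. Its base holds the ring of Psmc ATPases that unfold substrates, with the scaffold and ubiquitin-receptor subunits Psmd1, Psmd2 and Psmd4, and its lid holds the deubiquitinase Psmd14. B lineage and other immune cells can replace the constitutive active subunits by the immunoproteasome subunits Psmb8, Psmb9 and Psmb10.

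The genes described are the rows of the raw count table whose NCBI gene number maps, in the RefSeq table, to a mouse protein-coding symbol of Psma, Psmb, Psmc or Psmd followed by a number. Psmb8, Psmb9, Psmb10 and Psmb11 were left out as immune and thymic forms. This gave 35 genes of 24885 rows: 8 Psma, 7 Psmb, 6 Psmc and 14 Psmd. Each gene entered by its symbol, but the family itself was chosen by the measured fold changes of its genes in del against fl, which were already known. Every level, fold change, count and adjusted p of the family in that contrast is therefore a description and supports nothing further. The name Psmd also covers 3 assembly chaperones, Psmd5, Psmd9 and Psmd10, which help build the cap and are not part of the finished particle.

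The cells were mouse Eµ-Myc B-cell lymphoma cells, in which a Myc transgene is driven in the B lineage, and all carried Cre-ERT2 and floxed miR-17~92 alleles. In the fl group (3 libraries) the microRNA cluster was kept. The del group (3 libraries) came from cells given 250 nM 4-OHT (4-hydroxytamoxifen, which activates Cre-ERT2) for 4 days to delete it and then subcloned. Both grew for 48 hours on irradiated Ink4a-null fibroblast feeders before RNA was taken, and 3' ends were sequenced from oligo-dT primers. Deletion, drug and subcloning fall on the same libraries and cannot be told apart. Whether libraries of a group are separate cultures, clones or repeats of one is unstated in the labels. P-values then measure only how these samples spread, and that spread may be technical.

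Depth differed by group: an fl library had 6554423 to 9580630 counts and a del library 2121796 to 3738720, so fl was 2.65 times deeper on average. The 10 tested B cell markers were all higher in del, and the 11 listed ones summed to 56.3 to 66.4 CPM (TMM-scaled counts relative to library size) in fl and 1213 to 1404 CPM in del. Of the 10 myeloid markers 6 were tested, with 2 lower and 4 higher in del. They summed to 32.8 to 43.4 CPM in fl and 1262 to 1336 CPM in del, with Mpo and S100a9 at 0 counts in every library. Fibroblast markers, as the feeders would carry, summed to 1.61 to 8.21 CPM in fl and 13.4 to 32.7 CPM in del, with 2 of 3 tested higher and Lum at 0. T and NK markers summed to 38.5 to 42.5 CPM and 99.0 to 120.1 CPM, with 2 lower and 1 higher of 3 tested and Cd3e, Nkg7 and Ncr1 at 0. The 5 erythroid markers summed to between 0.459 and 2.37 CPM, with Hba-a1, Hba-a2 and Alas2 at 0. The part of these differences in the proteasome values was not tested. Over all genes tested, 32.6% were lower and 32.5% higher in del. In bulk RNA, fewer cells of a type and less RNA per cell cannot be told apart.

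Promoters of 6 cap genes are shown because 1 short motif was frequent among the cap genes of the family. It stood on both sides of the split between genes that fell and genes that did not. The promoter of Psmb5 is shown for another motif. The RefSeq promoter table (GRCm38.p6, the assembly that mm10 represents; 250 bases before to 50 after a gene's start) held 28 of the 35 genes, 2 of them with 2 windows. Psma8, Psmb1, Psmb2, Psmb7, Psmc3, Psmd3 and Psmd7 have no entry. The 6 letters CGGAAG, the core of sites bound by ETS factors, stood on either strand in the windows of 17 of the 28 (60.7%), against 18.8% of 27025 genes with a window and 41.2% of 6502 protein-coding genes of at least 10 CPM in 3 libraries. They were in 13 of 17 cap genes (76.5%) and 4 of 11 core genes (36.4%). Cap genes here are all Psmc and Psmd genes with a window. The assembly chaperones Psmd5, Psmd9 and Psmd10 are counted among them and held no match. Each line below gives the 100 bases just before the annotated start, 5′ to 3′ in the direction of transcription. Capitals mark CGGAAG or its reverse complement in the first 6 and, in Psmb5, a match to TGACNNNGC, a loose form of the antioxidant response element that NFE2L1 and NFE2L2 bind.
Psmc1 (chr12:100110102-100110201, plus strand): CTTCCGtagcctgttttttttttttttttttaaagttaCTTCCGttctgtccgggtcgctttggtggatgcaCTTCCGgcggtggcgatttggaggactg
Psmc2 (chr5:21785175-21785274, plus strand): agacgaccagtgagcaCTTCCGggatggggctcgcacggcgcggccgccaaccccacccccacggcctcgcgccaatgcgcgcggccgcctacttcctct
Psmd6 (chr14:14120946-14121045, minus strand): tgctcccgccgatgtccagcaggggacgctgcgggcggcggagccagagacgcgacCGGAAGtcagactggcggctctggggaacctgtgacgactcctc
Psmd12 (chr11:107479428-107479527, plus strand): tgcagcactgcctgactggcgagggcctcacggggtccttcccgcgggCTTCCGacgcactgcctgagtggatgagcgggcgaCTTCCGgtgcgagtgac
Psmd1 (chr1:86064519-86064618, plus strand): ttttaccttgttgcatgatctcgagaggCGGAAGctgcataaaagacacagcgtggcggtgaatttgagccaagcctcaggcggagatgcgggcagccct
Psmd11 (chr11:80428515-80428614, plus strand): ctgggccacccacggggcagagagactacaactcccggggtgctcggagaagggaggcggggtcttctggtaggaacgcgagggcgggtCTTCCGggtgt
Psmb5 (chr14:54617996-54618095, minus strand): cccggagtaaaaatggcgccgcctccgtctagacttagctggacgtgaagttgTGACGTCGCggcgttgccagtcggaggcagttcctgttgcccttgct
Psmc1 holds 3 such hexamers in this stretch, Psmd12 holds 2 and the other cap genes shown hold 1. Of these, Psmc2, Psmd6 and Psmd12 were lower in del, while Psmc1, Psmd1 and Psmd11 did not pass the test.

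The other motifs searched, on both strands, were rarer in the family. TGACNNNGC was in 5 of the 28 (17.9%, against 17.4% of the 6502), namely Psmb5, Psmb6, Psmc6, Psmd9 and Psmd12. A second form of this element, TGANTCAGC, was in 1 gene, Psmb5 (3.57%, against 1.14%), at another position than the match shown; a site of this form with C in place of N would count for both. CCAAT, the box bound by NF-Y, was in 11 (39.3%, against 43.0%), 5 of them among the 7 Psma genes with a window. The E-box CACGTG, a site of MYC and MAX, was in Psma4 and Psmd9 (7.14%, against 12.8%), and the NRF1 palindrome in Psma2 (3.57%, against 2.78%). Members with CGGAAG had a median log2 fold change (del minus fl) of -0.55, with 11 of 17 lower. The 11 without it had a median of -0.79, with 9 lower, where 32.6% of all genes tested were lower. A match describes letters in a window and is no measure of binding.

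Transcripts of the core and of much of the cap were lower in del, and none of the family was higher by the test. Of the 35 genes 34 passed the count filter. Of these, 25 fell and none rose at an adjusted p under 0.05 (edgeR's quasi-likelihood test, Benjamini-Hochberg adjustment over 10260 genes), where 65.1% of all genes tested were called, 32.6% lower and 32.5% higher. Their median log2 fold change was -0.72 (60.9% of the fl level), against -0.00 over all genes tested. In 26 of the 34 every del library lay below every fl library, as did 35.7% of all genes tested. Summed over the family, fl libraries reached 12047, 10172 and 10152 CPM and del libraries 6851, 7286 and 6359 CPM. Falls of at least 2-fold were 8 among the 14 tested core genes and 3 among the 20 Psmc and Psmd genes (17 with the assembly chaperones aside). The share of all genes tested with such a fall was not counted, so nothing particular to core or cap is read from these counts. Log2 fold changes had an SD of 1.84 over all genes tested and 0.50 over the family.

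**Figure D1:**
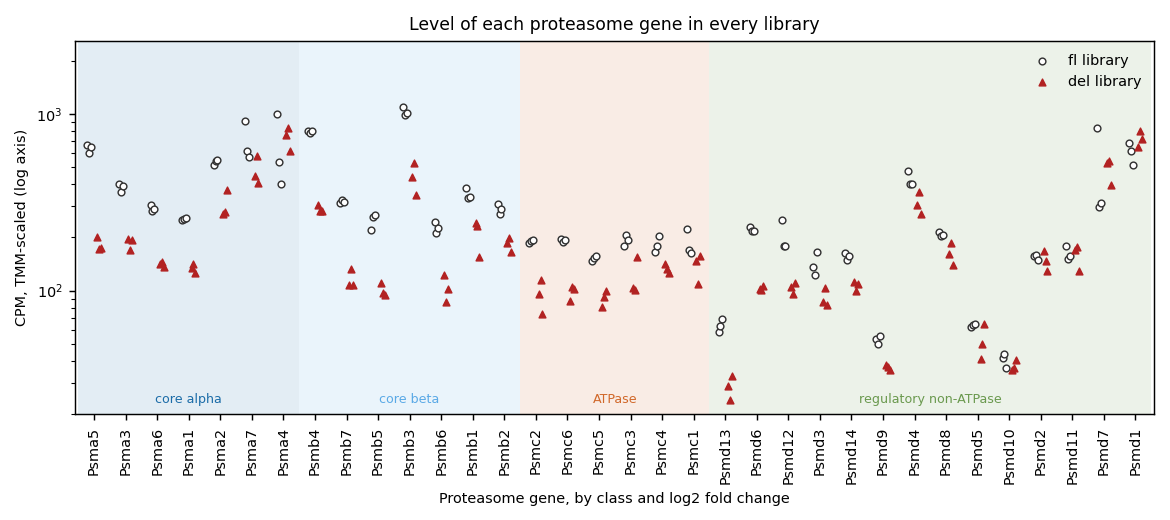
Level of the 34 tested proteasome genes in each library, in CPM on a log axis, ordered by class and fold change; open circles are the 3 fl libraries and red triangles the 3 del libraries. The Psmb genes show 7 of 7 genes with all del libraries below all fl libraries, against 35.7% of all genes tested. Psma4 and Psmd7 show 1 fl library far above the other 2.

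The 7 beta subunits all fell (against 32.6% of all genes tested), with a median log2 fold change of -1.23, or 42.6% of the fl level. Psmb5 (chromosome 14, 54614120 to 54617995), the chymotrypsin-like active subunit, was at 220, 260 and 269 CPM in fl and at 111, 96.6 and 93.8 CPM in del. The groups did not overlap, and its log2 fold change was -1.31 ± 0.15 (SE; adjusted p = 5.49e-05, edgeR). Psmb7 (chromosome 2, 38588046 to 38643952), the trypsin-like subunit, was at 312, 325 and 316 CPM in fl and at 108, 132 and 108 CPM in del. This was a log2 fold change of -1.46 ± 0.14 (adjusted p = 2.58e-05, edgeR).

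Psmb6 (chromosome 11, 70525324 to 70527858), the caspase-like subunit, was at 245, 213 and 227 CPM in fl and at 122, 85.7 and 102 CPM in del, again with no overlap (log2 fold change -1.14 ± 0.16). All 3 active sites of the constitutive core were thus encoded by transcripts at 36.5% to 45.5% of their fl level. Among the subunits without an active site, Psmb4 (chromosome 3, 94884324 to 94886958) had the lowest fold change of the class, from 803, 782 and 802 CPM in fl to 307, 281 and 282 CPM in del. Psmb3 averaged 1030 ± 54.1 CPM over fl and 439 ± 89.6 CPM over del (SD, n = 3 libraries). Psmb1 and Psmb2 fell least, to 59.2% and 63.4% of fl.

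Of the 7 tested alpha subunits 6 fell (against 32.6% of all genes tested), with a median of -0.93. Psma5 (chromosome 3, 108256926 to 108279952) had the lowest fold change of the whole family. It was at 672, 604 and 652 CPM in fl and at 201, 172 and 174 CPM in del, so the del libraries held 28.4% of the fl level (log2 fold change -1.82 ± 0.14, adjusted p = 7.26e-06, edgeR). Psma3, Psma6 and Psma1 were at 48.3%, 48.6% and 52.4% of fl, and Psma2 at 57.7%. Psma7, an alpha-ring subunit, was at 915, 617 and 573 CPM in fl and at 444, 575 and 408 CPM in del. The del library at 575 CPM lay above the lowest fl library, and the fold change was -0.56 ± 0.21 (adjusted p = 0.0403, edgeR's quasi-likelihood test).

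Psma4 (chromosome 9, 54950781 to 54958034) was the alpha subunit that did not fall. Its fl libraries held 995, 535 and 401 CPM and its del libraries 762, 830 and 615 CPM, so that fl replicate 1 stood above every del library and the other fl libraries below all of them. The log2 fold change was 0.19 ± 0.30 (adjusted p = 0.598, edgeR). Psma8, the alpha subunit of the testis form, was not tested: the 3 fl libraries together held 3 counts and the del libraries 0. A count of 0 allows up to 0.312 CPM over the del libraries, above the 0.123 CPM of fl.

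The 6 ATPases of the base moved within a narrower range than the core, from -1.01 to -0.42. Of these 5 fell, against 32.6% of all genes tested. Their summed level was 1094, 1086 and 1102 CPM in fl and 654, 653 and 713 CPM in del, 61.5% of fl. Psmc2 (chromosome 5, 21785275 to 21803787) fell most, from 185, 190 and 193 CPM to 95.6, 115 and 74.1 CPM (log2 fold change -1.01 ± 0.17, adjusted p = 0.000658, edgeR). Psmc6, Psmc5, Psmc3 and Psmc4 were at 51.0%, 59.5%, 62.3% and 72.7% of fl, and Psmc4 was lost without fl replicate 3 (adjusted p = 0.0598, edgeR). Psmc1 (chromosome 12, 100110202 to 100123364) was at 222, 169 and 163 CPM in fl and at 146, 109 and 157 CPM in del. Its groups did not overlap, yet at -0.42 ± 0.18 on the log2 scale it missed the threshold (adjusted p = 0.0675, edgeR). It passed without del replicate 3 (-0.53, adjusted p = 0.0464), with upper-quartile factors (0.0171) and without a count filter (0.0362).

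**Figure D2:**
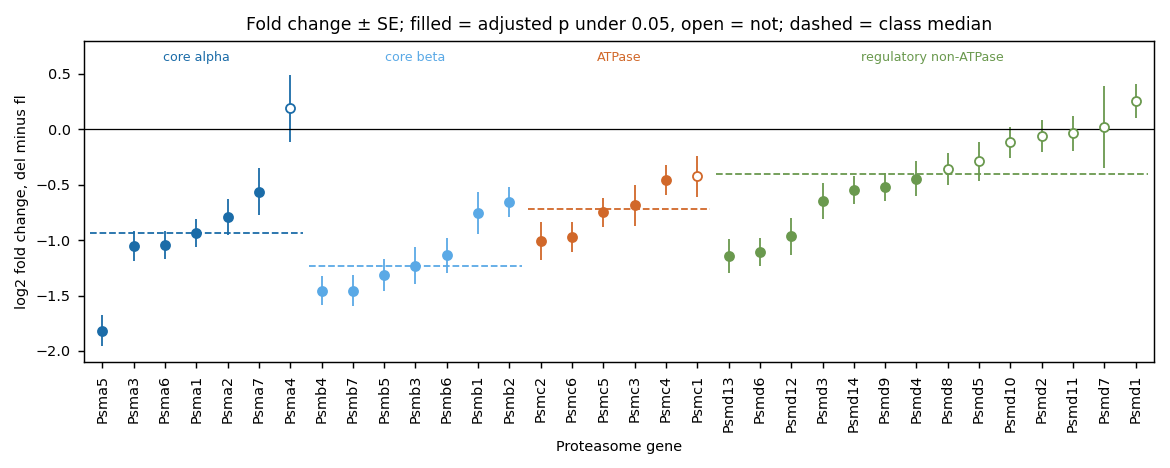
Log2 fold change (del minus fl) ± SE of each tested proteasome gene; filled points had an adjusted p under 0.05, open points did not, and dashed lines are class medians. The medians lie at -0.93 for alpha, -1.23 for beta, -0.72 for ATPase and -0.40 for Psmd genes, and 7 of the 9 open points are Psmd genes.

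The Psmd genes split into those that fell and those that did not, 7 and 7 of 14, with a median of -0.40. Within the lid, 5 of 8 fell. The share called lower over all genes tested was 32.6%. Psmd13 (chromosome 7, 140882394 to 140898642) went from 58.6, 63.3 and 68.8 CPM to 28.7, 24.2 and 32.7 CPM (log2 fold change -1.14 ± 0.15). Psmd6 (chromosome 14, 14112185 to 14120945) went from 230, 216 and 218 CPM to 102, 101 and 106 CPM (-1.11 ± 0.12). Psmd12 and Psmd3, also structural lid subunits, were at 51.2% and 63.9% of fl. Psmd14, the deubiquitinase that removes ubiquitin chains from substrates, averaged 157 ± 7.52 CPM over fl and 107 ± 6.59 CPM over del (SD, n = 3), a log2 fold change of -0.55 ± 0.13.

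The 3 lid genes that did not pass were Psmd8, Psmd11 and Psmd7. Psmd8 averaged 208 ± 5.47 CPM against 162 ± 22.5 CPM in del (SD, n = 3; log2 fold change -0.36 ± 0.14, adjusted p = 0.0515, edgeR), which is close to the threshold. Psmd8 passed without del replicate 2 (-0.46, adjusted p = 0.0272, edgeR), with DESeq2 (0.0476), with upper-quartile factors (0.015), without a count filter (0.0411) and with a filter of 10 CPM (0.0452). Psmd11, a lid subunit that braces the cap on the core, was at 180, 150 and 157 CPM in fl and at 170, 177 and 129 CPM in del, a log2 fold change of -0.04 ± 0.16. Its groups overlapped, and its sign turned with library totals as the scaling (0.0088). Psmd7 (chromosome 8, 107580380 to 107588482), the partner of Psmd14 in the lid, was at 832, 298 and 314 CPM in fl and at 527, 544 and 397 CPM in del. As with Psma4, fl replicate 1 lay above all del libraries and the other fl libraries below all of them (log2 fold change 0.02 ± 0.37, but -0.09 with upper-quartile factors).

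The large scaffolds of the base were not lower in del. Psmd1 (chromosome 1, 86064619 to 86139295) was at 687, 618 and 512 CPM in fl and at 654, 802 and 718 CPM in del, with overlapping groups (log2 fold change 0.26 ± 0.16, adjusted p = 0.171, edgeR). Psmd2 (chromosome 16, 20651122 to 20663414) was at 157, 159 and 148 CPM in fl and at 168, 147 and 129 CPM in del, a log2 fold change of -0.06 ± 0.14 (adjusted p = 0.723, edgeR). Psmd4, the ubiquitin receptor beside them, fell from 474, 401 and 400 CPM to 306, 361 and 270 CPM (-0.45 ± 0.16, adjusted p = 0.0321, edgeR). That call was lost without fl replicate 1, fl replicate 2, del replicate 1 or del replicate 3 (adjusted p = 0.0738, 0.056, 0.0774 and 0.0884).

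Of the 3 assembly chaperones 1 fell, which is near the share of all genes tested that were called lower (32.6%). Psmd9 went from 53.0, 49.9 and 55.0 CPM to 37.7, 37.0 and 35.7 CPM (log2 fold change -0.52 ± 0.13, adjusted p = 0.0053, edgeR). Psmd5 was at 62, 63.4 and 64.8 CPM in fl and at 40.8, 49.7 and 64.9 CPM in del (-0.29 ± 0.17, adjusted p = 0.168), and it passed without del replicate 3 (-0.50, adjusted p = 0.0182). Psmd10, known as gankyrin, was at 41.6, 43.6 and 36.7 CPM in fl and at 35.3, 36.5 and 40.5 CPM in del (-0.12 ± 0.14).

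A single fl library decided several values of the family. In fl replicate 1, Psma4, Psma7, Psmd7 and Psmd12 were each at least 1.4 times as high as in both other fl libraries, as were 718 of 10260 genes (7.00%). In the other fl libraries no member was so high, against 335 genes in fl replicate 2 and 166 in fl replicate 3. By the same measure within del, replicate 3 had 757 such genes (7.38%), 1 of them a member. Del replicates 2 and 1 had 581 and 487 such genes and no member. Without fl replicate 1, Psma4 (log2 fold change 0.64, adjusted p = 0.0141, edgeR) and Psmd7 (0.67, adjusted p = 0.00807) passed as higher in del and Psma7 was lost (-0.33, adjusted p = 0.122). The family then had 23 genes lower and 2 higher. Psma7 was also lost without del replicate 1 (adjusted p = 0.111) or del replicate 3 (0.113).

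Transcript length moved with these fold changes. Across 10010 tested genes with a length in GENCODE, the longest annotated transcript and the log2 fold change had a Spearman's rho of 0.41 across genes, and across the 34 proteasome genes it was 0.33. Both are descriptions over genes of the same 6 libraries. Proteasome transcripts were short, with a median of 1220 nucleotides for the core, 1851 for the ATPases and 2054.5 for the Psmd genes, against 3399 for all genes tested. After the trend on length and GC content was removed, the family median was -0.30, that of the core -0.41 (alpha -0.40, beta -0.42), that of the ATPases -0.13 and that of the Psmd genes -0.21 (lid -0.32, base 0.03). Of the members 6 then changed sign: Psmb2 (0.29) and Psma7 (0.16), which had fallen, and Psmd10 (0.25), Psmd8 (0.06), Psmc1 (0.06) and Psmd2 (0.03), which had not passed the test. The lowest were then Psmb7 (-1.59), Psmc2 (-1.26), Psma3 (-1.19) and Psma5 (-1.17). The trend was fitted over all tested genes with a length. With it removed, rho across the 34 proteasome genes was -0.28, so within the family a relation of opposite sign to length remained. The trend-removed values of single members and classes carry this limit. The longest annotated transcript need not be the one expressed.

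**Figure D3:**
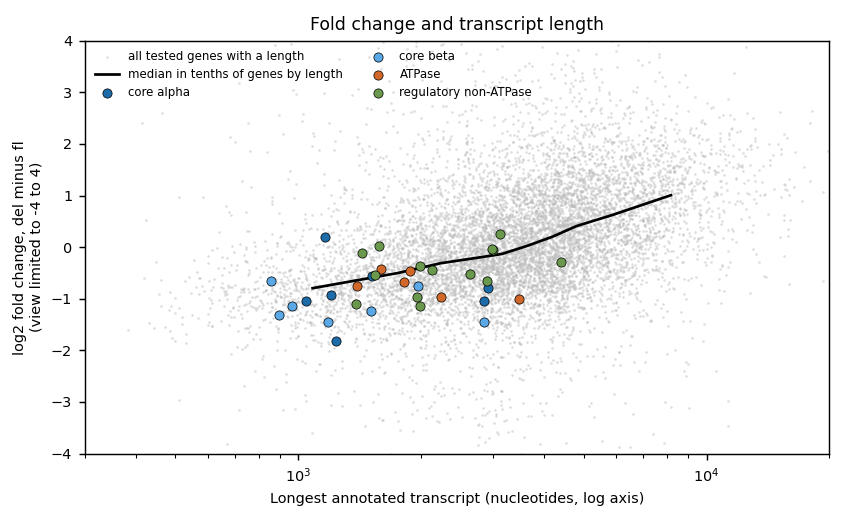
Log2 fold change (del minus fl) against the longest annotated transcript in nucleotides on a log axis; grey points are the tested genes with a length (the most extreme lie outside the axes), the black line joins medians of equal-sized groups of genes ordered by length, and coloured points are the 34 proteasome genes. The line rises with length, and most core genes lie toward its short end, and Psma5 and Psmb7 sit well below it.

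The immunoproteasome subunits that take the place of Psmb5, Psmb6 and Psmb7 differed among themselves: 1 rose, 1 fell and 1 did not pass. These counts are near the shares of all genes tested (32.5% higher, 32.6% lower), and nothing particular to the list is read from them. Psmb8 was at 158, 158 and 139 CPM in fl and at 167, 166 and 154 CPM in del (log2 fold change 0.10 ± 0.13, but -0.03 with upper-quartile factors). Psmb9 was at 22.2, 21.5 and 17.6 CPM in fl and at 53.2, 46.0 and 46.8 CPM in del, and rose by 1.25 ± 0.15 on the log2 scale (adjusted p = 7.98e-05, edgeR). Psmb10 was at 81.5, 85.3 and 88.6 CPM in fl and at 64.5, 55.9 and 61.4 CPM in del, and fell by 0.49 (SE 0.13), although its value was 0.31 with the length and GC trend removed.

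The share of each immune subunit in the counts of its pair is given as a description, since Psmb5, Psmb6 and Psmb7 belong to the family chosen by its fall in this contrast, and a lower partner alone raises the share. Psmb8 held 34.1% to 41.8% of the counts of Psmb8 and Psmb5 in the fl libraries and 60.2% to 63.2% in the del libraries. The widest exact 95% binomial interval of this pair, that of del replicate 2, was 59.0% to 67.2%. Psmb9 held 7.19% to 9.18% of its pair with Psmb6 in fl and 30.3% to 34.9% in del, and Psmb10 20.7% to 21.9% of its pair with Psmb7 in fl and 29.7% to 37.4% in del. The mean log2 ratio of counts was higher in del by 1.41 for Psmb8 to Psmb5, by 2.41 for Psmb9 to Psmb6 and by 0.97 for Psmb10 to Psmb7. The groups did not overlap for any of the 3 pairs. These ratios compare a pair between libraries and give no molar ratio of the subunits. The intervals hold counting error alone, because PCR copies are not independent molecules.

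**Figure D4:**
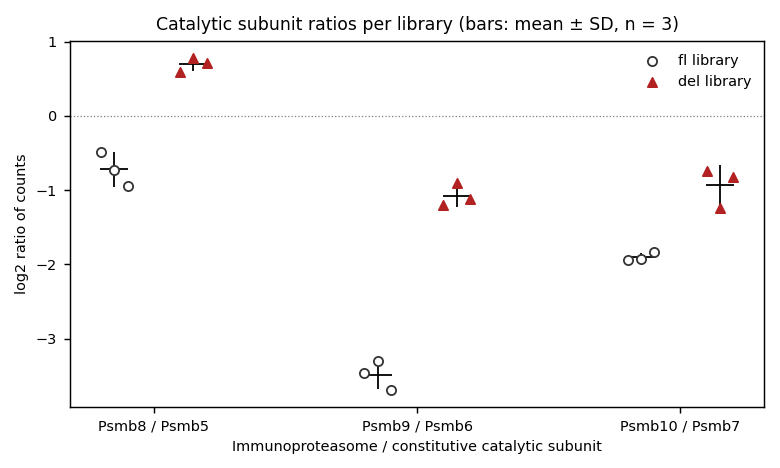
Log2 ratio of the counts of each immunoproteasome subunit to those of the constitutive subunit it replaces, per library; open circles are fl, red triangles del, and bars give mean ± SD (n = 3). For Psmb8 to Psmb5 the mean is -0.72 in fl and 0.70 in del, and in every pair the 3 del libraries lie above the 3 fl libraries.

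Most factors that assemble the core were also lower. Of 5 tested assembly factors outside the family 4 fell (against 32.6% of all genes tested), with a median of -1.18. Pomp, which helps the beta ring mature, went from 331, 299 and 322 CPM to 142, 143 and 149 CPM (log2 fold change -1.13 ± 0.13). Psmg1 (-1.25 ± 0.16), Psmg2 (-1.18 ± 0.13) and Psmg3 (-1.29 ± 0.17), chaperones of the alpha ring, also fell. Psmg4, the partner of Psmg3, was at 137 ± 25.5 CPM and 116 ± 6.07 CPM (SD, n = 3; adjusted p = 0.204, edgeR). Among cap subunits with other names, Sem1 fell (-0.55 ± 0.15) and Adrm1, a ubiquitin receptor, did not pass (-0.26 ± 0.18).

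Alternative activators of the core moved in both directions. Psme4, which encodes a large single-chain activator, rose from 23, 24.4 and 24.8 CPM to 55.6, 62.5 and 61.9 CPM (log2 fold change 1.32 ± 0.13, adjusted p = 2.75e-05, edgeR). Psme1 went from 296, 209 and 205 CPM to 722, 582 and 454 CPM (1.31 ± 0.21), while Psme2, its partner in the interferon-inducible ring, went from 77.1, 67.9 and 75.5 CPM to 41.1, 39.3 and 38.9 CPM (-0.88 ± 0.13). Both differences left no overlap, in opposite directions, although that of Psme2 was 0.03 with the length and GC trend removed. Psme3, of the nuclear ring, fell (-0.63 ± 0.15), and the inhibitor Psmf1 did not pass (-0.33 ± 0.15).

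Genes of proteins that dock on the proteasome or feed it went both ways. Of 5 proteasome-bound enzymes and adaptors 2 rose (against 32.5% of all genes tested) and none fell (against 32.6%), and nothing particular to the list is read from these counts. The genes that rose were Ecpas, which tethers core and cap (log2 fold change 1.29 ± 0.21), and the deubiquitinase Uchl5 (0.94 ± 0.22). Usp14, Txnl1 and Ube3c did not pass. Of 10 ubiquitin, E1 and shuttle genes 8 fell (against 32.6% of all genes tested) and 1, the E1 gene Uba6, rose (against 32.5%). Uba6 stood at 0.95 ± 0.28 and did not pass without del replicate 2 (0.72, adjusted p = 0.063, edgeR). Without fl replicate 3 the count of those that fell was 3. Rps27a, a ubiquitin-ribosomal fusion, had the lowest fold change among them (-1.26 ± 0.12). Vcp, the ATPase that extracts ubiquitinated proteins, rose from 446, 316 and 392 CPM to 674, 919 and 611 CPM (0.93 ± 0.20), as did its adaptor Faf2 (0.60 ± 0.18), whereas Ufd1, Faf1 and Nsfl1c fell, the last at 0.05 with the trend removed. Nsfl1c was lost without fl replicate 2 or del replicate 1 (adjusted p = 0.165 and 0.127, edgeR), and Faf1 without fl replicate 2 (0.0671).

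**Figure D5:**
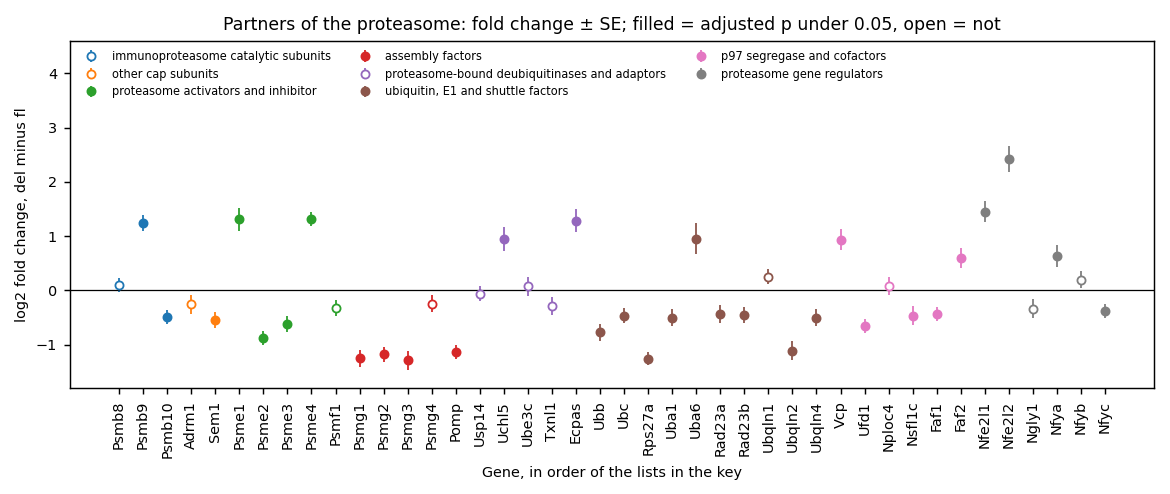
Log2 fold change (del minus fl) ± SE of tested genes that assemble, activate, feed or regulate the proteasome, coloured by list; filled points had an adjusted p under 0.05. Psmg1, Psmg2, Psmg3 and Pomp lie between -1.29 and -1.13, while Psme4, Psme1, Ecpas, Nfe2l1 and Nfe2l2 lie above 1.

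Of 6 tested genes that regulate proteasome transcription 3 rose and 1 fell, where 65.1% of all genes tested were called, so the count of calls is near the background. Nfe2l1, which encodes the factor that raises proteasome transcription when proteasome activity falls, was at 21.9, 17.6 and 18.5 CPM in fl and at 67.2, 46.9 and 43.8 CPM in del, a log2 fold change of 1.45 ± 0.19 (adjusted p = 0.000157, edgeR). Nfe2l2 was at 45.9, 30.4 and 29.5 CPM in fl and at 154, 172 and 240 CPM in del (2.42 ± 0.23, adjusted p = 2.67e-05, edgeR). Of the NF-Y genes Nfya rose (0.64 ± 0.20), Nfyc fell (-0.38 ± 0.13) and Nfyb did not pass. Nfya was lost without fl replicate 1 or del replicate 3 (adjusted p = 0.0614 and 0.0838, edgeR), and Nfyc without fl replicate 1, 2 or 3 or del replicate 3 (0.0557, 0.0566, 0.076 and 0.0846) and with a replicate term (0.0591). Ngly1, whose enzyme is needed to activate NFE2L1, did not pass (-0.34 ± 0.17). Ddi2 did not pass the count filter and was not tested in the main fit. Without a count filter, 4 genes of this list were higher in del and 1 was lower. These are RNA levels, and the activity of the factors was not measured.

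Other multi-subunit machines give these values a setting. Of 8 CCT chaperonin genes 7 were lower, with a median log2 fold change of -0.84. Of 79 tested cytosolic ribosomal protein genes 71 were lower, with a median of -0.90, where 32.6% of all genes tested were lower. The core stood at a median of -1.05. With the length and GC trend removed the medians were -0.63 for CCT, -0.09 for ribosomal proteins and -0.41 for the core. The SD of log2 fold changes among members was 0.50 for the proteasome, 0.37 for CCT and 0.48 for ribosomal proteins. No test of these differences was made.

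Some of these counts may include reads of other loci. Over the last 500 bases of the longest coding transcript, Psma4, Psma5, Psmb3, Psmb5, Psmc1 and Psmd2 matched at least 1 annotated pseudogene transcript over 100 or more bases at 95% identity or higher. The counting of such reads is not described, so the levels of these 6 genes are uncertain. Psmd1 shares exons with the readthrough gene Gm21972. The ends of Psmb7 and Psmc3 overlap Nek6 and Slc39a13 on the opposite strand, and exons of Psma4, Psma5, Psmd3 and Psmd13 also overlap opposite-strand genes. The libraries were strand-specific, but the strand setting of the counting is not stated, and reads of such pairs cannot be told apart. Similar and overlapping loci were searched for the 35 family members alone, so the other genes named here were not checked.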

How the data were processed

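RNA of 3 fl and 3 del libraries was sequenced from its 3' ends after oligo-dT priming, with strand kept, per the labels' protocols. Values are raw counts per gene in 1 deposited table. The submitters' processing notes name STAR, HTSeq and mm10; settings are not described. Of 24885 rows, 24052 carry an NCBI gene number, and RefSeq (GRCm38.p6) matched 23969 of them. Rows without a matched symbol held 0.207% to 1.04% of a library's counts and stayed in the fit.

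The edgeR package (4.0.16, R 4.3.3) was used as follows: filterByExpr, TMM scaling, a quasi-likelihood fit with robust estimation on group alone, and Benjamini-Hochberg adjustment over all genes tested, with calls at an adjusted p under 0.05. SEs come from the F statistic. CPM uses TMM-scaled library sizes. A tested proteasome gene had 250 to 9513 counts in an fl library and 51 to 2893 in a del library. The scripts were tested on simulated data. Alternatives were DESeq2 1.42.0, other scalings and filters, each library left out, a replicate term, no robust estimation, thinning to the shallowest library, and removal of a linear trend on log10 transcript length and GC content (longest transcript, GENCODE M21).

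Members, gene lists and the rule for genes described singly were chosen with earlier results of these data known. The rule took the 3 active subunits, the lowest and highest fold change of each class, members not called, the assembly chaperones and genes of the lists; other members are given in passing. The permutation test of the 3 immune to constitutive ratios is not given, because its denominators belong to the chosen family. Leaving out the 4 genes that are high in fl replicate 1 was added after seeing the data. Paaf1 and protein sequences were not analysed here, and 2 genes of the lists are not reported here.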

Additional observations from a re-analysis of the deposited data

How the results depend on the processing

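Across other scalings, filters, tests and left-out libraries, 23 to 27 proteasome genes were lower in del against 25, and 5488 to 7286 of all genes were called against 6676. Upper-quartile factors shifted the median of all genes to -0.13. With them the medians were -0.85 for the family, -1.06 for alpha, -1.36 for beta, -1.17 for the core and -0.73 for the lid. The immunoproteasome median and Psmb8 turned to -0.027, Psmd7 to -0.087, Nploc4 to -0.054, and the list of proteasome-bound enzymes with Ube3c to -0.056. Without a count filter the medians were -0.80 for the family and -1.04 for alpha, and Psmd7 stood at -0.028. With library totals Psmd11 was at 0.0088. Thinned to the shallowest library, Psmd10 was at 0.0032 and Ube3c, with its list, at -0.032. With the length and GC trend removed the medians were -0.30 for the family, -0.40 for alpha, -0.42 for beta, -0.41 for the core, -0.13 for the ATPases, -0.21 for the Psmd genes, -0.32 for the lid and 0.031 for the base. The median of the activators then turned to 0.029, that of the Vcp list to 0.027 and that of the proteasome-bound enzymes to -0.29. Genes called lower that turned were Psma7 (0.16), Psmb2 (0.29), Nsfl1c (0.049), Psmb10 (0.31) and Psme2 (0.029), and uncalled genes that turned were Psmc1 (0.060), Psmd2 (0.031), Psmd8 (0.061), Psmd10 (0.25), Psmg4 (1.10), Nfyb (-0.072) and Ube3c (-0.29).

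Leaving out each library in turn gave 23 to 26 members lower and 0 to 2 higher in the family, 0 to 1 higher among the alpha, core, lid and Psmd genes, 0 to 1 lower in the base and 1 to 2 lower among the chaperones. The base median ranged from -0.17 to 0.031 and that of the proteasome-bound enzymes from -0.082 to 0.18. Ranges that crossed 0 were those of Psma4 (-0.053 to 0.64), Psmd7 (-0.22 to 0.67), Psmd11 (-0.12 to 0.093), Psmd2 (-0.17 to 0.031), Nploc4 (-0.12 to 0.16), Ube3c (-0.087 to 0.18) and Usp14 (-0.14 to 0.016). Without the 4 genes high in fl replicate 1 the alpha median was -1.04 and 23 members were lower. The cause of these changes was not tested. With 1 sample fewer, 2 libraries stand for a group.

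Replicate numbers are shared between groups, and a fit with the replicate block called 6510 genes and 25 proteasome genes lower. Same-numbered libraries deviated from their group means with correlations of 0.083, -0.040 and -0.021, and differently numbered ones with -0.15 to 0.17. With 3 libraries per group the deviations depend on one another, so these values cannot decide whether a number marks a shared culture or day. The labels do not state it. In del the lowest tested member held 51 counts in a library, which limits the precision of the least abundant genes.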
